A study of Homo sapiens with 32 samples.

Results

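The cytosolic ribosomal protein genes were the 77 genes of 62703 in the count tables whose symbols follow the RPL, RPLP and RPS patterns without a pseudogene suffix, together with RPSA. They comprised 46 proteins of the large ribosomal subunit and 31 of the small subunit, and all 77 were abundant enough to be tested in every comparison. Poly(A) RNA was sequenced from HEK293T cells, an established line from human embryonic kidney, carrying a CRISPR/Cas9 knockout of IGF2BP1, of IGF2BP2 or of IGF2BP3, and from cells that received a guide RNA targeting no mammalian gene, the control. IGF2BP1, IGF2BP2 and IGF2BP3 are related RNA-binding proteins that attach to mRNAs in the cytoplasm. Each of the 4 genotypes gave total, nuclear and cytoplasmic RNA. The cells had no further treatment. Each knockout was 1 clone grown from a sorted cell, so what belongs to the clone and what belongs to the lost protein cannot be told apart. There were 4 control libraries per RNA kind, 1 in each of batches 1 to 4. The IGF2BP1 knockout had 2 libraries, in batches 1 and 2, and the IGF2BP2 and IGF2BP3 knockouts had 2 each, in batches 3 and 4. The cytoplasmic IGF2BP3 knockout had 2 more libraries in batch 5, which held no control and added nothing to its fold change. The labels do not say whether the replicates were separate cultures, so p-values measure the spread between these libraries only.

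Each ribosomal protein is built into the ribosome in a single copy, apart from the paired acidic proteins of the stalk, and the genes are kept at matched high expression in dividing cells. Their mRNAs usually begin with a C followed by an unbroken run of C and U, the 5′ terminal oligopyrimidine or TOP motif, through which mTOR signalling and the protein LARP1 control their translation and stability. The subunits are assembled with ribosomal RNA in the nucleolus and then exported, while the ribosomal protein mRNAs themselves are translated in the cytoplasm.

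The start of the transcript is the feature that the members are best known to share, and windows of 30 bases around the RefSeq start were therefore read for the members the results turn on. Promoter entries of RefSeq (GRCh38.p14) matched 62 of the 77 genes. On the transcribed strand, the base at the start was C and the run of C or T from it was at least 5 bases long in 42 of the 62, or 67.7%, against 1429 of 35116 promoters of the whole table, or 4.07%. The median length of the run was 8 bases in those 42 genes. The run was searched on the transcribed strand only, and a match describes the letters and not a working motif. Each window opens with 10 bases before the annotated start, and capitals mark the C-led run at the start, where there is one.
RPL26 (chr17:8383174-8383203, minus strand): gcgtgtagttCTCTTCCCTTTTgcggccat
RPS25 (chr11:119018324-119018353, minus strand): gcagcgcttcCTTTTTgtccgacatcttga
RPSA (chr3:39406710-39406739, plus strand): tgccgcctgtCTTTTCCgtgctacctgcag
RPL12 (chr9:127451387-127451416, minus strand): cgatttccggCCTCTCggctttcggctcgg
RPL22 (chr1:6199576-6199605, minus strand): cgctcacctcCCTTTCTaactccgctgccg
RPL36A (chrX:101391001-101391030, plus strand): ctcgcggtttCTTTCTTTCCgcgccgatag
RPL19 (chr17:39200273-39200302, plus strand): tctccccttcgcagataatgggaggagccg
RPL10 (chrX:154398055-154398084, plus strand): ccactctcagaaatatacgtctgtcacagt
RPS28 (chr19:8321486-8321515, plus strand): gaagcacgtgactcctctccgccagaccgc
The windows of RPL26, RPS25, RPSA, RPL12, RPL22 and RPL36A carry the run at the annotated start, and those of RPL19, RPL10 and RPS28 do not at that base.

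Libraries held between 13689067 and 26119480 counts. In total RNA the targeted gene fell from 396 to 469 CPM (counts scaled to the total of the library) in the control to 24.7 and 27.1 CPM in the IGF2BP1 knockout, from 73.6 to 104 CPM to 34.3 and 34.8 CPM for IGF2BP2, and from 80.2 to 86.9 CPM to 44.7 and 43.4 CPM for IGF2BP3. Total RNA replicate 2 and nuclear RNA replicate 1 of the IGF2BP1 knockout held the same count in all 62703 genes, so 1 of these labels goes against its library, and values of that knockout without it are given beside its total and nuclear RNA results. The 8 markers fixed for HEK293 cells were detected in the control, with PAX2 at 2.92 CPM and VIM at 672 CPM. Of 8 markers of other cell types, PTPRC, ALB, LYZ and CD34 averaged under 1 CPM in total control RNA and HBG1 was at 0. The fractions overlapped in content: the summed level of 6 nuclear RNAs, of which MEG3 was at 0, was 569 to 819 CPM in nuclear and 390 to 433 CPM in cytoplasmic control RNA. In cytoplasmic RNA that sum was 545 and 546 CPM in the IGF2BP1 knockout, 1059 and 1117 CPM with IGF2BP2 knocked out and 587 to 1211 CPM with IGF2BP3 knocked out. The sum was also higher outside the cytoplasm: in total RNA it was 663 to 747 CPM in the control, 1427 and 1387 CPM with IGF2BP2 knocked out and 1773 and 2041 CPM with IGF2BP3 knocked out, and in nuclear RNA 1097 and 967 CPM and 1427 and 1629 CPM in these knockouts. The part of these RNAs in the results below was not tested.

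The 77 genes took 6.61% ± 0.22 (SD, n = 4) of the counts in total control RNA, 6.57% ± 0.56 in nuclear and 8.41% ± 0.86 in cytoplasmic control RNA. Control libraries differed by batch in the cytoplasm, at 7.80% and 7.55% in batches 1 and 2 and 9.24% and 9.05% in batches 3 and 4. Knockout libraries were therefore set beside the control of their own batch. In cytoplasmic RNA the IGF2BP1 knockout had a share of 6.63% and 6.53%, IGF2BP2 of 9.01% and 8.80%, and IGF2BP3 of 8.57% and 8.27% in batches 3 and 4. All 6 of these libraries lay below the control of their batch, with relative differences of -15.1% and -13.6% (IGF2BP1), -2.48% and -2.83% (IGF2BP2), and -7.25% and -8.71% (IGF2BP3). Mitochondrially encoded genes took a mean of 7.73% of the counts in cytoplasmic control RNA over all batches. Their mean was 6.71% in the IGF2BP1, 9.82% in the IGF2BP2 and 8.84% in the IGF2BP3 knockout, batch 5 included. Their part in these differences of the share was not tested. In total RNA the IGF2BP2 knockout had 5.93% and 5.73% and the IGF2BP3 knockout 5.49% and 5.31%, all 4 below the lowest control. The IGF2BP1 knockout was split, with 5.66% in replicate 1 and 6.91% in replicate 2, the library that recurs in the nuclear set. In nuclear RNA the IGF2BP2 knockout was above the controls of its batches at 7.53% and 8.06%, with relative differences of 11.1% and 12.7%. The nuclear IGF2BP1 knockout was also above its same-batch controls, at 6.91% (the repeated library) and 6.28%, with relative differences of 5.94% and 7.94%, and the IGF2BP3 knockout was below its own at 6.72% and 5.92%, with -0.86% and -17.3%. A share of bulk RNA cannot tell fewer expressing cells from less RNA per cell. The plot of the share by library shows these values.

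**Figure D1:**
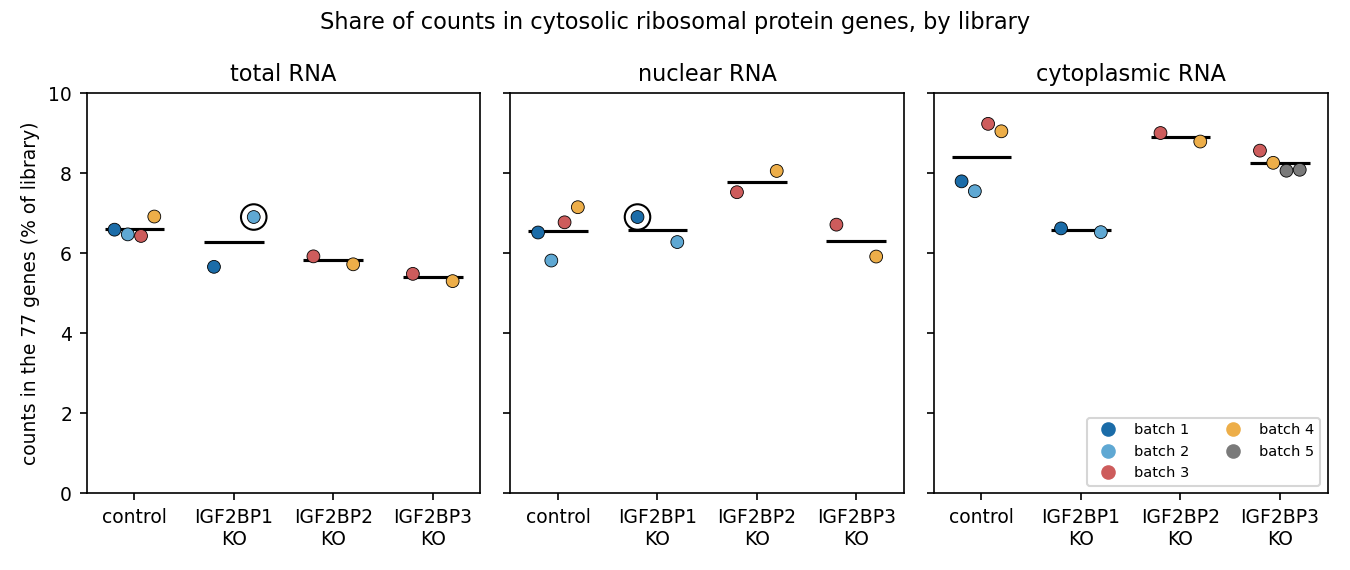
Percent of the counts of each library that fell on the 77 ribosomal protein genes (vertical axis) by genotype and RNA kind, 1 point per library coloured by batch, lines at the means and rings around the repeated library. The cytoplasmic IGF2BP1 knockout libraries lay at 6.63% and 6.53% against 7.80% and 7.55% in the controls of the same batches, and the total IGF2BP3 knockout libraries at 5.49% and 5.31% lay below all 4 controls.

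Levels of different genes were compared as CPM per kilobase of mRNA, because the deposited FPKM values were scaled by the span of the gene on the genome. In total control RNA the median of the 77 genes was 957 CPM per kilobase, 37 genes exceeded 1000 and 6 were below 100. RPS2, which lines the entry of the mRNA channel, was the most abundant at 3149 ± 109 CPM per kilobase (SD, n = 4), followed by RPL8 at 2459 ± 32.6, RPL29 at 1992 ± 73.6, RPS18 at 1954 ± 90.2 and RPL7A at 1754 ± 69.5. RPL29 and RPS18 lay within their SDs of each other, while the other neighbours in this order were apart by more than the sum of their SDs. Among the lowest were RPL22 at 51.5 ± 4.18, RPL36A at 52.2 ± 13.0, RPL17 at 53.0 ± 7.43 and RPS10 at 68.1 ± 6.18, and the first 3 of these did not differ beyond their spread. Of those genes, RPL36A, RPL17 and RPS10 share 77.6% to 91.0% of their mRNA bases with exons of another annotated gene on the same strand. Reads in shared exons can be left out or split by the counting, so these levels are uncertain.

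The first question was how the mRNAs of each knockout differed from the control, answered in 1 edgeR quasi-likelihood fit per RNA kind with the batch as a term. Fold changes are log2 of knockout over control after TMM scaling, which sets the bulk of genes to no change, with the standard error (SE), and a gene counts as called where its p, adjusted by Benjamini-Hochberg over all genes tested, was under 0.05. The 3 knockouts were compared with overlapping sets of control libraries, so their results are not independent of each other. CPM values are relative to the library total and can move differently from the scaled fold change, above all in the IGF2BP2 and IGF2BP3 knockouts. Counts from fits that leave out a library are given without the share of all genes called in the same fit. They show how the count moved and are not to be read against the shares of the full fit. Genes named below were mostly picked by call and size of change in these libraries. Library values of such genes that do not overlap between groups add no support to the calls.

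In the cytoplasm of the IGF2BP1 knockout, 71 of the 77 genes fell and 6 were not called, where 44.4% of all tested genes were called and 21.9% fell. The median change of the 77 genes was -0.25, with 0.01 for all genes. The genes that were not called were RPL22, RPL35A, RPS16, RPS21, RPS26 and RPS28, with changes between -0.09 and 0.01. The loss reached both subunits, with 44 of 46 large and 27 of 31 small subunit genes lower. In the 2 batch pairs the median change was -0.27 and -0.22. In total RNA 14 genes fell and 63 were not called, with a median of -0.02 and 24.2% of all genes called, and 13 of the 14 encode large subunit proteins. Without the repeated library 37 fell and the median was -0.23. In nuclear RNA 5 rose and 6 fell, with a median of 0.13 and 25.7% of all genes called. Without the repeated library 13 were called there, 8 of them higher, with a median of 0.18. The total RNA count of genes called in either direction was 46 without control replicate 1 and 38 without control replicate 2. How many of these fell is not given here. Without control replicate 1 or knockout replicate 1, only the batch 2 pair is left, which holds the repeated library. In total RNA the median change was -0.23 in the batch 1 pair and 0.12 in the batch 2 pair, so its sign differed between the pairs. The nuclear count was 6 without control replicate 3 or 4 and 7 without control replicate 2 or knockout replicate 2.

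RPL26, RPL19, RPL23 and RPL23A fell in all 3 RNA kinds and in each batch pair of the IGF2BP1 knockout. The share of all genes that did so is not given here. All 4 are large subunit proteins, RPL26, RPL19 and RPL23A sit at the exit of the tunnel through which the new protein chain leaves, and all 4 genes lie on chromosome 17. RPL26 (ENSG00000161970, chr17:8377516-8383250, minus strand, GRCh38), whose start is printed above, had 420, 412, 506 and 496 CPM in cytoplasmic control RNA and 189 and 176 CPM in the IGF2BP1 knockout. Every knockout library was below every control. The change was -1.27 ± 0.04 (SE; adjusted p = 5.53e-24) in the cytoplasm, -0.74 ± 0.10 (adjusted p = 2.59e-07) in the nucleus and -0.86 ± 0.12 (adjusted p = 0.000207) in total RNA, and without the repeated library it was -0.74 in the nucleus and -1.13 in total RNA. In total RNA RPL26 had 310, 304, 368 and 387 CPM in the control and 148 and 208 CPM in the knockout, so the groups did not overlap there either. RPL26 shares 65.3% of its mRNA bases with the annotated gene AC135178.2 on the same strand.

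RPL19 (ENSG00000108298, chr17:39200283-39204732, plus strand) had 1524, 1446, 1893 and 1758 CPM in cytoplasmic control RNA and 913 and 879 CPM in the IGF2BP1 knockout, a change of -0.80 ± 0.03 (adjusted p = 1.15e-19). Both knockout libraries were far below the lowest control. Its change was -0.54 ± 0.12 in nuclear and -0.63 ± 0.08 in total RNA, and -0.43 and -0.75 without the repeated library. RPL23, a protein near the elongation factor site, had 1035, 998, 1218 and 1192 CPM in the cytoplasmic control and 644 and 637 CPM in the knockout, a change of -0.74 ± 0.03. RPL23A, which docks the signal recognition particle, had 724, 711, 865 and 826 CPM and 479 and 483 CPM, a change of -0.65 ± 0.04. Neither gene overlapped between the groups. In nuclear RNA the changes of RPL23 (-0.35 ± 0.12) and RPL23A (-0.32 ± 0.11) were smaller, and without the repeated library they were -0.33 and -0.21, the latter no longer called. In total RNA they were -0.55 and -0.64, and -0.75 for each gene without that library. RPL23 lost its nuclear call without control replicate 3 or 4, and RPL23A without control replicate 1, 3 or 4 or IGF2BP2 knockout replicate 1. The remaining chromosome 17 members, RPL27 and RPL38, also fell in the cytoplasm, and the 6 genes there had changes between -1.27 and -0.61.

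In the IGF2BP2 knockout, 53 genes fell and 8 rose in the cytoplasm, with a median of -0.20, where 64.2% of all genes were called, 33.2% lower and 30.9% higher. With library totals in place of TMM the split was 30 lower and 32 higher and the median was 0.02, with 0.24 for all genes. The direction of the typical change thus depended on the scaling. Another scaling moves all genes of a library alike, so the gap between members and all genes is no separate check. With upper-quartile scaling 36 were lower and 21 higher. In total RNA 51 fell and RPL22 rose, with a median of -0.35 and 47% of all genes called, and the median was -0.16 with library totals, against 0.20 for all genes. In nuclear RNA 18 rose and 16 fell, with a median of 0.09, where 49.7% of all genes were called, 24.8% higher and 24.9% lower, and 31 rose and 14 fell with library totals. The 8 higher genes in the cytoplasm were RPL36A, RPL22 and 6 with changes between 0.077 and 0.13, among them RPL35, RPL37, RPL37A, RPS15A and RPS18. The large subunit had 31 lower genes of 46 in the cytoplasm and the small subunit 22 of 31. The total RNA count of 52 called genes was 29 without control replicate 4, 32 without knockout replicate 1 and 30 without knockout replicate 2. The nuclear count of 34 was 9 and 12 without control replicates 3 and 4, and 18 and 14 without knockout replicates 1 and 2.

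RPS25, RPSA, RPS13, RPL10, RPL39 and RPL23 had the largest losses, ranked by the smallest of the 3 changes, among the 14 genes that fell in all 3 and in each batch pair of the IGF2BP2 knockout. Of all genes, 23.7%, 24.9% and 33.2% were called lower in total, nuclear and cytoplasmic RNA, and the share that met the whole rule is not given here. RPS25 (ENSG00000118181, chr11:119015712-119018691, minus strand), a protein of the 40S head needed by many viral internal ribosome entry sites, had 380, 380, 393 and 406 CPM in total control RNA and 238 and 223 CPM in the knockout. In the cytoplasm it had 452, 430, 546 and 533 CPM in the control and 349 and 342 CPM in the knockout. The knockout libraries were the lowest in each RNA kind. The change was -0.98 ± 0.11 (adjusted p = 2.05e-05) in total, -0.55 ± 0.11 (adjusted p = 2.39e-05) in nuclear and -0.87 ± 0.04 (adjusted p = 1.08e-20) in cytoplasmic RNA.

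RPSA (ENSG00000168028, chr3:39406689-39412542, plus strand), the laminin receptor homologue of the small subunit, had 1495, 1473, 1704 and 1638 CPM in cytoplasmic control RNA and 1100 and 1080 CPM in the IGF2BP2 knockout, a change of -0.84 ± 0.03. RPS13 had 568, 513, 642 and 623 CPM and 416 and 431 CPM, a change of -0.80 ± 0.04. In both genes the knockout libraries lay below all controls. RPL10, which completes the 60S subunit late in its maturation, changed by -0.63 ± 0.03 in the cytoplasm, RPL39 of the exit tunnel by -0.55 ± 0.04 and RPL23 by -0.59 ± 0.03. For RPL10 the CPM of 1337 and 1324 in the knockout lay below the 1484, 1457, 1778 and 1751 of the control. For RPL39 the 214 and 218 CPM lay inside the control range over all batches, 210 to 276, and its fall was called with the batch term. In nuclear RNA RPL10 lost its call without control replicate 3 or 4 or knockout replicate 1, RPSA without control replicate 4, and RPL39 without knockout replicate 1. RPL39 also lost it in total RNA without control replicate 4 or knockout replicate 2. The nuclear loss of RPL23, -0.38 ± 0.12, was not called without control replicate 4 or knockout replicate 1.

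RPL22, a large subunit protein with roles outside the ribosome in lymphocytes, was the 1 member higher in all 3 RNA kinds of the IGF2BP2 knockout. It had 70.8, 72.0, 83.4 and 87.5 CPM in nuclear control RNA and 138 and 135 CPM in the knockout. In cytoplasmic RNA it had 102, 101, 122 and 123 CPM in the control and 189 and 179 CPM in the knockout. The knockout libraries were well above every control in both fractions. The change was 0.58 ± 0.09 (adjusted p = 1.13e-06) in nuclear, 0.36 ± 0.04 (adjusted p = 5.39e-09) in cytoplasmic and 0.29 ± 0.10 (adjusted p = 0.0314) in total RNA. The call in total RNA was lost without control replicate 3 or 4, without either knockout replicate or without either IGF2BP3 knockout replicate, with changes of 0.22 to 0.35. In the IGF2BP3 knockout RPL22 fell in total (-0.29 ± 0.10), nuclear (-0.22 ± 0.09) and cytoplasmic RNA (-0.17 ± 0.04). In the IGF2BP1 knockout its change was -0.45 ± 0.10 in total RNA, which was called, with -0.26 in the batch pair without the repeated library and -0.64 in the pair with it. It was 0.09 ± 0.09 in nuclear and 0.01 ± 0.05 in cytoplasmic RNA, neither of them called.

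In the IGF2BP3 knockout, 70 genes fell and RPL36A rose in the cytoplasm, with a median of -0.29, where 64.7% of all genes were called, 33.2% lower and 31.5% higher. With library totals 33 fell and 21 rose, with a median of -0.02 against 0.29 for all genes, and with upper-quartile scaling 48 fell and 8 rose. In total RNA 63 fell and 14 were not called, with a median of -0.46 and 46.9% of all genes called. In nuclear RNA 42 fell and 35 were not called, with a median of -0.29, where 50.4% of all genes were called, 25.1% higher and 25.3% lower, and 26 fell and 4 rose with library totals. The loss reached both subunits, with 44 of 46 large and 26 of 31 small subunit genes lower in the cytoplasm and 36 and 27 in total RNA. The total RNA count was 32 without control replicate 4 and 35 without knockout replicate 2. The nuclear count was 23 and 12 without control replicates 3 and 4, and 10 without knockout replicate 2.

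Losses common to the 3 RNA kinds and all batch pairs were found in 40 members in this knockout, and RPS2, RPL10A, RPL12, RPL10 and RPS28 were among those that led by their smallest change. Of all genes, 23.4%, 25.3% and 33.2% were called lower in total, nuclear and cytoplasmic RNA. The share of all genes that met the whole rule is not given here, so the 40 has no background beside it. RPS2 (ENSG00000140988, chr16:1962052-1964860, minus strand) had 3178, 3092, 2954 and 3184 CPM in total control RNA and 1440 and 1280 CPM in the IGF2BP3 knockout. In cytoplasmic RNA it had 3691, 3722, 4223 and 4357 CPM in the control and 2312, 2408, 2297 and 2285 CPM in the knockout, batch 5 included. All knockout libraries were far below all controls, and the 2 batch 5 libraries lay beside those of batches 3 and 4. The change was -1.39 ± 0.09 (adjusted p = 1.37e-07) in total, -0.97 ± 0.13 (adjusted p = 4.32e-08) in nuclear and -1.13 ± 0.04 (adjusted p = 2.21e-23) in cytoplasmic RNA. The IGF2BP1 and IGF2BP2 knockouts changed RPS2 by -0.11 ± 0.04 and -0.14 ± 0.04 in the cytoplasm, both called.

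RPL12, at the base of the stalk that recruits elongation factors, had 944, 951, 914 and 1002 CPM in total control RNA and 583 and 575 CPM in the IGF2BP3 knockout, a change of -0.94 ± 0.08. RPL10A had 744, 732, 778 and 822 CPM and 528 in each knockout library, a change of -0.82 ± 0.09. Neither gene overlapped between the groups here. RPL10 and RPS28 changed by -0.67 ± 0.09 and -0.74 ± 0.08 in total RNA and by -0.58 ± 0.03 and -0.57 ± 0.04 in the cytoplasm.

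**Figure D2:**
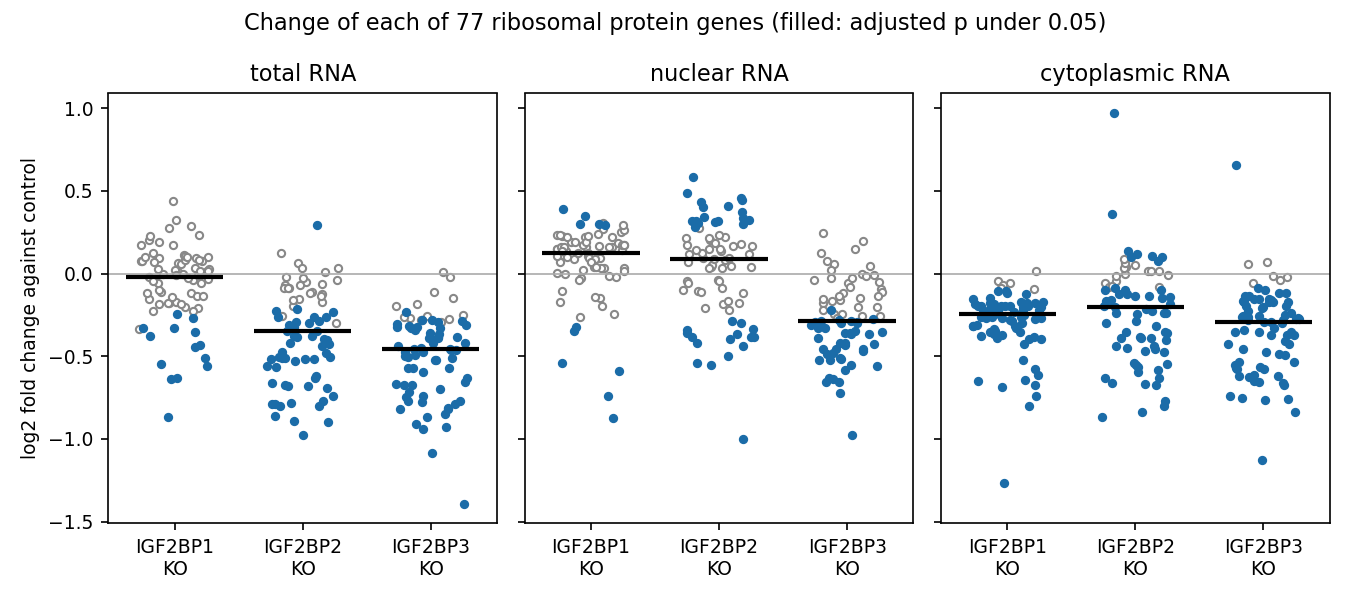
Log2 fold change of each of the 77 ribosomal protein genes (vertical axis, 1 point per gene, TMM scaling) for each knockout against the control in total, nuclear and cytoplasmic RNA, filled where called, with lines at the medians. In cytoplasmic RNA 71, 53 and 70 genes were called lower in the IGF2BP1, IGF2BP2 and IGF2BP3 knockouts; the IGF2BP2 split was 30 lower and 32 higher with library totals, and the IGF2BP3 split 33 lower and 21 higher.

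RPL8, RPL12, RPL11 and RPL6 ranked first by the smallest of their 3 cytoplasmic changes, 1 per knockout. The IGF2BP2 and IGF2BP3 knockouts share their same-batch controls. RPL8, a core protein beside the peptidyl transferase centre, had 3048, 3079, 3329 and 3623 CPM in the control, 2096 and 2027 CPM in the IGF2BP1 knockout, 2796 and 2697 CPM in the IGF2BP2 knockout and 2446 to 2548 CPM in the IGF2BP3 knockout. Every knockout library was below every control. Its change was -0.65 ± 0.04, -0.56 ± 0.04 and -0.76 ± 0.04 in that order of knockouts. RPL12 had 1197, 1146, 1453 and 1451 CPM in the control and changed by -0.52 ± 0.03, -0.39 ± 0.03 and -0.76 ± 0.03. RPL11, which with RPL5 forms the 5S particle that restrains MDM2 when ribosome assembly fails, changed by -0.36 ± 0.03, -0.47 ± 0.03 and -0.36 ± 0.03, and RPL6 by -0.37 ± 0.03, -0.54 ± 0.03 and -0.35 ± 0.03. For RPL11 the IGF2BP3 knockout libraries of batches 3 and 4, at 1165 and 1124 CPM, lay below their same-batch controls of 1223 and 1211 CPM and above the 1026 and 1029 CPM of batches 1 and 2.

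Grouped by place in the ribosome, both members of the 5S particle fell in the cytoplasm of each knockout, with medians of -0.36, -0.35 and -0.46 for IGF2BP1, IGF2BP2 and IGF2BP3. The 4 stalk proteins RPLP0, RPLP1, RPLP2 and RPL12 all fell in the IGF2BP1 and IGF2BP2 knockouts and 3 fell in the IGF2BP3 knockout, where RPLP1 changed by -0.02 ± 0.05. Of the 8 proteins at the exit tunnel, 8, 5 and 8 fell, with medians of -0.39, -0.34 and -0.19, and RPL35 rose in the IGF2BP2 knockout by 0.12. The 5 proteins of the mRNA channel, RPS2, RPS3, RPS26 and RPS28 among them, included 3, 5 and 5 that fell, with medians of -0.11, -0.38 and -0.57. Of 9 proteins of the 40S head 8, 5 and 7 fell, with medians of -0.20, -0.09 and -0.37, and RPS18 rose in the IGF2BP2 knockout by 0.077. RPS6, RPS27A and RPSA, which also act in signalling or as a ubiquitin precursor, fell in each knockout, with medians of -0.18, -0.24 and -0.54. These groups hold few genes, and the counts are read against the 21.9%, 33.2% and 33.2% of all genes called lower in the cytoplasm of the IGF2BP1, IGF2BP2 and IGF2BP3 knockouts.

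The IGF2BP2 and IGF2BP3 knockouts shared batches 3 and 4, and their difference was tested directly. In the cytoplasm 42 of the 77 genes were lower and 19 higher in the IGF2BP3 than in the IGF2BP2 knockout, with a median difference of -0.12 and 62.7% of all genes called. In nuclear RNA 47 were lower and 5 higher, with a median of -0.35 and 48.2% of all genes called, and in total RNA 24 were lower and 10 higher, with a median of -0.10 and 43.3% called. The nuclear count of 52 was 29 without IGF2BP2 or IGF2BP3 knockout replicate 2. The total RNA count of 34 was 22 without IGF2BP2 knockout replicate 1 or IGF2BP3 knockout replicate 2, and 54 or 55 without control replicate 1 or 2 or either IGF2BP1 knockout replicate.

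RPS2 differed most, by -0.99 ± 0.04 (adjusted p = 1.1e-21) in the cytoplasm, with 4677 and 4416 CPM in the IGF2BP2 and 2285 to 2408 CPM in the IGF2BP3 knockout. RPL31 of the exit tunnel, with 1145 and 1111 CPM against 646 to 733 CPM, differed by -0.69 ± 0.05. RPL13A, which also silences inflammatory mRNAs when released from the ribosome, differed by -0.67 ± 0.03 with 2660 and 2643 CPM against 1267 to 1763 CPM, and its batch 5 libraries of 1267 and 1281 CPM were lower than those of batches 3 and 4. RPL36 differed by -0.66 ± 0.03. In the other direction RPS25 differed by 0.61 ± 0.04, with 349 and 342 CPM in the IGF2BP2 and 502 to 566 CPM in the IGF2BP3 knockout. RPS3, an mRNA channel protein with roles in DNA repair, differed by 0.55 ± 0.03, RPL27A by 0.55 ± 0.03 and RPL19 by 0.54 ± 0.03. These 8 genes were picked for the largest called differences in the same libraries. Of them, RPS25, RPS3 and RPL27A lie on chromosome 11.

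Position on the chromosome was examined because genes that changed most in a knockout were neighbours, a pattern noticed after the values were seen. For each member the median change of the tested genes within 5 Mb on either side, other than members, was set beside its own change. Across the 77 genes the correlation (Pearson) in the cytoplasm was 0.79 for IGF2BP1, 0.48 for IGF2BP2 and 0.54 for IGF2BP3, and 0.79 for IGF2BP3 against IGF2BP2. These are descriptions, since neighbouring members share neighbours and all genes share libraries. Without chromosome 17 the IGF2BP1 value was 0.38, and the lowest value without any 1 chromosome was 0.72 for IGF2BP3 against IGF2BP2, without chromosome 11. The corresponding value was 0.06 for nuclear against cytoplasmic control RNA.

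On chromosome 17 the 6 members RPL19, RPL23, RPL23A, RPL26, RPL27 and RPL38 had a median cytoplasmic change of -0.71 in the IGF2BP1 knockout, and the 1052 other tested genes of the chromosome had -0.50. On chromosome 11 RPS3, RPS13, RPS25, RPL27A and RPLP2 had a median of -0.67 in the IGF2BP2 knockout, and the 906 other genes had -0.45. On chromosome 19, which holds 12 members, the median was -0.62 in the IGF2BP3 knockout beside -0.15 for the 1153 other genes, and on chromosome 2 it was -0.51 beside -0.30. RPL26 changed by -1.27 in the IGF2BP1 knockout where its 162 neighbours had a median of -0.92, and RPS25 by -0.87 in the IGF2BP2 knockout where its 73 neighbours had -0.48. RPS2 changed by -1.13 in the IGF2BP3 knockout, and its 194 neighbours had a median of -0.20. Members lay below the median of their neighbours in 75, 67 and 74 of 77 cases in the cytoplasm of the IGF2BP1, IGF2BP2 and IGF2BP3 knockouts. In total RNA the numbers were 49, 74 and 76. In nuclear RNA they were 20, 27 and 73, so most members lay above their neighbours there in the IGF2BP1 and IGF2BP2 knockouts. The number of DNA copies was not analysed here, and its part in these changes was not tested.

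**Figure D3:**
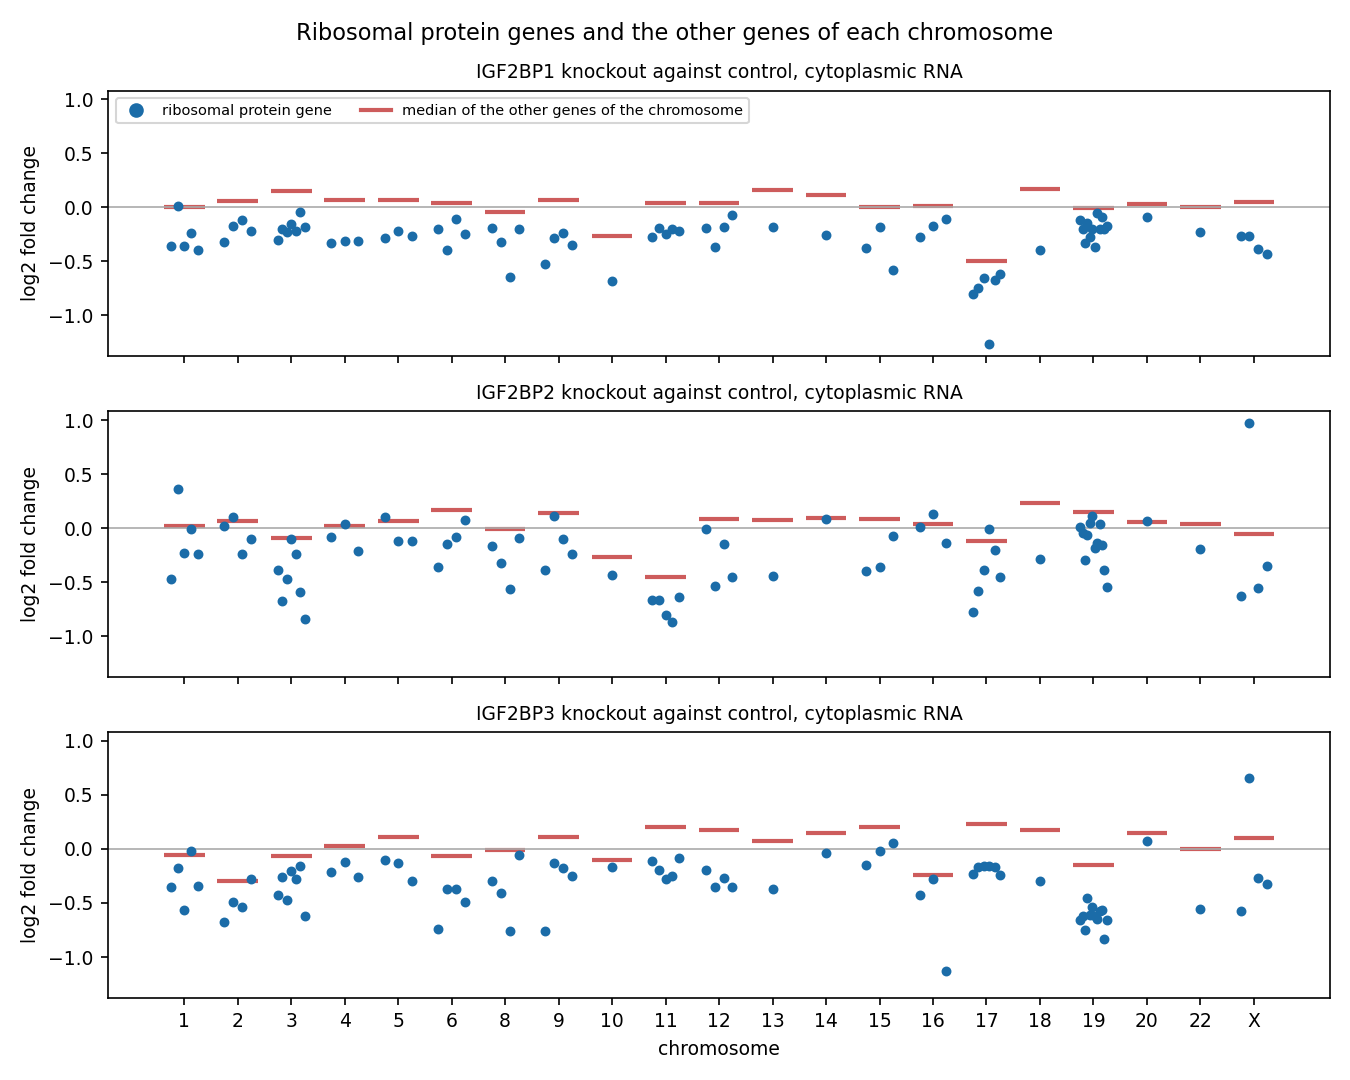
Log2 fold change in cytoplasmic RNA (vertical axis, TMM scaling) of each ribosomal protein gene (points) by chromosome (horizontal axis), with the median of the other tested genes of the chromosome as a line, for each knockout against the control. On chromosome 17 both lay low in the IGF2BP1 knockout (median of -0.71 for 6 members and -0.50 for other genes), and in the IGF2BP2 knockout chromosome 11 had -0.67 and -0.45.

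**Figure D4:**
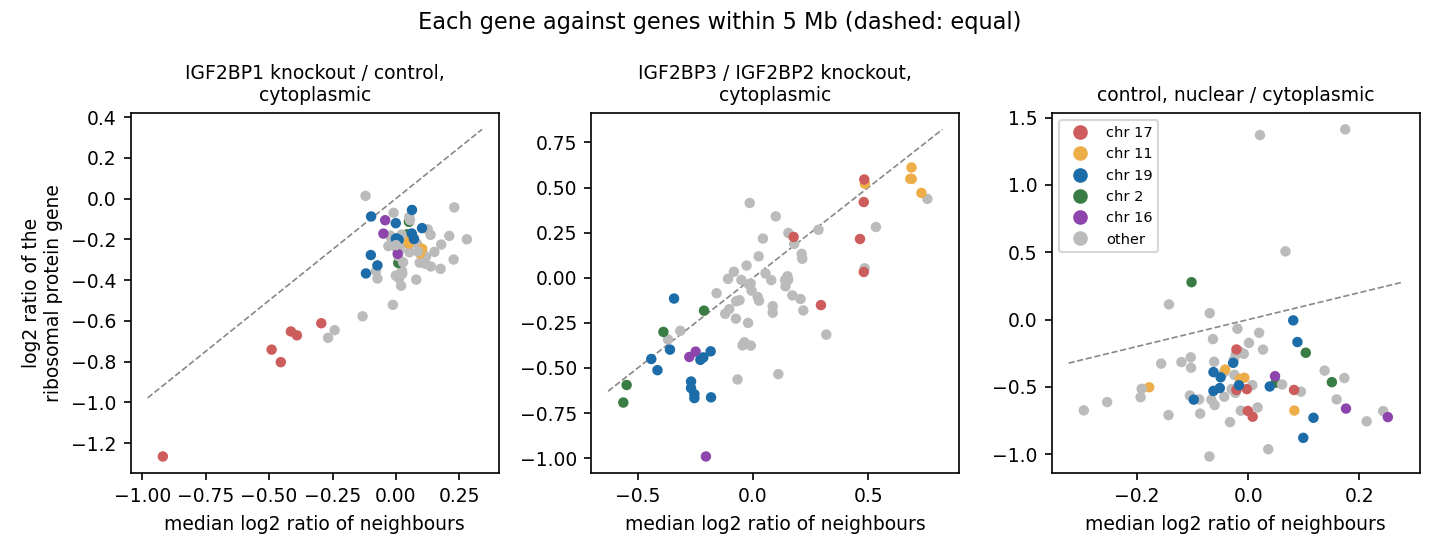
Log2 ratio of each ribosomal protein gene (vertical axis) against the median log2 ratio of the other tested genes within 5 Mb (horizontal axis), 1 point per gene, coloured by chromosome, for the IGF2BP1 knockout over the control, the IGF2BP3 over the IGF2BP2 knockout (both cytoplasmic) and the control's nuclear over cytoplasmic RNA; dashed lines mark equal values. Points rose with their neighbours in the first panels (Pearson 0.79 in each, 0.38 without chromosome 17 for IGF2BP1) and not in the last (0.06).

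The nuclear libraries of the control were set against its cytoplasmic ones, with a batch term. Relative to other RNAs, 68 of the 77 genes were lower in the nucleus and 4 higher, with a median log2 ratio of nuclear to cytoplasmic RNA of -0.49, where 65.9% of all genes were called. With library totals 59 were lower and 6 higher and the median was -0.35, with 0.12 for all genes. RPL12 had the lowest ratio, -1.02 ± 0.08 (adjusted p = 4.67e-11), with 677, 580, 760 and 852 CPM in nuclear and 1197, 1146, 1453 and 1451 CPM in cytoplasmic control RNA. RPS12 (-0.96 ± 0.08), RPL28 (-0.88 ± 0.07), RPL32 (-0.76 ± 0.08) and RPS4X (-0.76 ± 0.09) followed. No nuclear library of RPL12 reached its lowest cytoplasmic value.

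RPL36A stood at the other end, with a ratio of 1.41 ± 0.08 (adjusted p = 3.65e-13). RPL36A (ENSG00000241343, chrX:101390824-101396154, plus strand) had 33.6, 39.0, 42.6 and 37.0 CPM in nuclear and 12.5, 15.6, 12.1 and 11.4 CPM in cytoplasmic control RNA. The fractions did not overlap. It is among the lowest members and shares 77.6% of its mRNA bases with RPL36A-HNRNPH2. RPL36A-HNRNPH2 itself had a mean of 0.0520 CPM in total control RNA. RPS21 had a ratio of 0.51 ± 0.07 and RPS7 of 0.28 ± 0.07, both called, and RPL17 of 0.11 ± 0.07, not called.

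**Figure D5:**
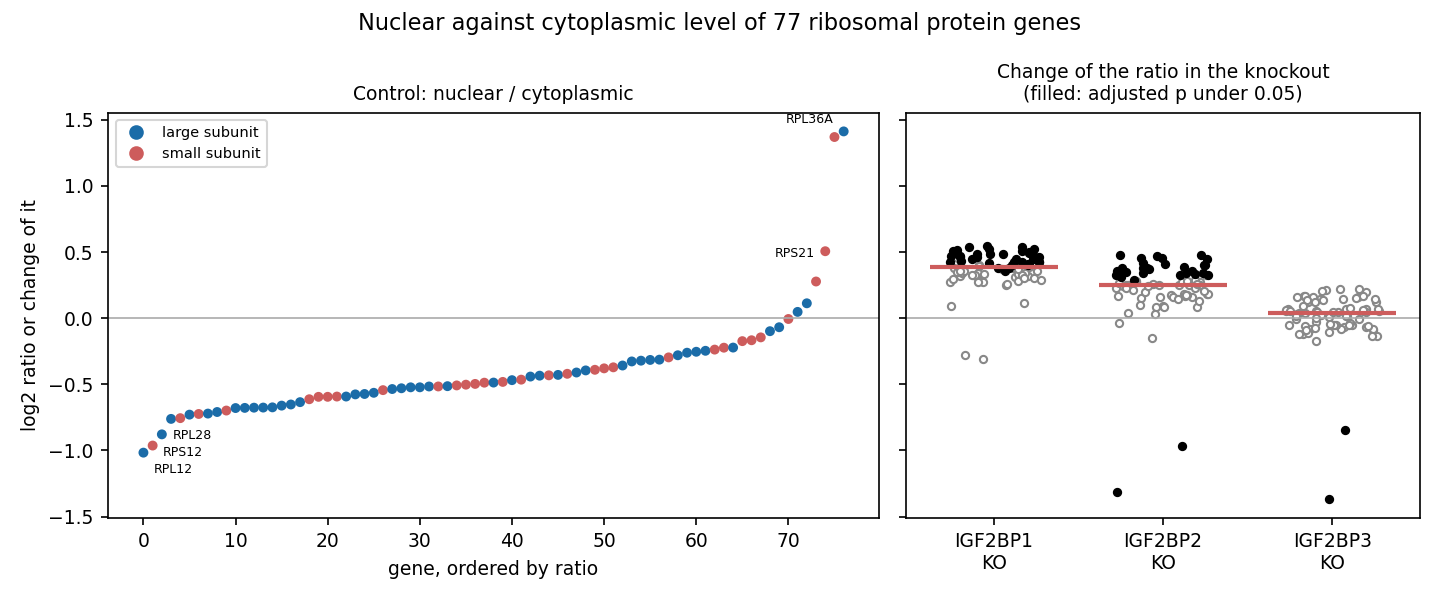
Left, log2 ratio of nuclear to cytoplasmic RNA in the control (vertical axis, TMM scaling) of the 77 ribosomal protein genes in order of that ratio, coloured by subunit; right, log2 change of the ratio in each knockout, 1 point per gene, filled where called, with lines at the medians. RPL36A had a control ratio of 1.41, most members lay below 0 (median -0.49, or -0.35 with library totals), and RPL36A is the lowest filled point of the IGF2BP2 and IGF2BP3 knockouts.

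Whether a knockout changed this ratio was tested as the interaction of genotype and fraction over the libraries of batches 1 to 4. In the IGF2BP1 knockout 37 members had a higher nuclear to cytoplasmic ratio than in the control and 40 were not called, with a median change of 0.39, where 2.99% of all genes were called, 1.9% higher and 1.09% lower. The 37 held 19 large and 18 small subunit genes. RPL12 changed by 0.55 ± 0.12 (adjusted p = 0.011), RPS27 by 0.54 ± 0.12 (adjusted p = 0.0156) and RPL26 by 0.54 ± 0.10 (adjusted p = 0.005). In RPL12 the cytoplasm of the knockout had 869 and 849 CPM, below all controls, while the nucleus had 662 and 620 CPM, inside the control range of 580 to 852. The nuclear side of this comparison holds the repeated library, and without it 66 members were higher of 68 called, with a median of 0.42 and changes of 0.63, 0.50 and 0.51 for RPL12, RPS27 and RPL26. The count depended on single libraries: it was 0 without cytoplasmic control replicate 1 or 2 or either cytoplasmic IGF2BP1 knockout replicate, 70 without nuclear control replicate 1 and 18 without nuclear IGF2BP1 knockout replicate 2. Without cytoplasmic control replicate 1 or 2, 56 and 66 members were higher at an unadjusted p under 0.05 in edgeR, against 73 with all libraries. DESeq2 with all libraries called 44 members. The shares of all genes at that unadjusted p and in DESeq2 are not given here. These numbers therefore have no background and do not make up for the count of 0. The adjusted edgeR count also moved in other fits. It was 24 without cytoplasmic control replicate 3 or 4, 13 without either cytoplasmic IGF2BP2 knockout replicate, and 23 and 13 without cytoplasmic IGF2BP3 knockout replicates 1 and 2. RPL12, RPS27 and RPL26 had changes between 0.42 and 0.62 in the 4 fits with a count of 0. The share of all genes called in the fits without a library is not given here, so their counts are not to be set beside the 2.99%.

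In the IGF2BP2 knockout 27 members had a higher ratio and 2 a lower one, with a median change of 0.25, where 18% of all genes were called, 8.68% higher and 9.35% lower. RPL11 changed by 0.48 ± 0.11 (adjusted p = 0.00305), RPS4X by 0.48 ± 0.12 (adjusted p = 0.00533) and RPLP1 by 0.47 ± 0.14 (adjusted p = 0.0177). The change of RPLP1 was 0.04 in the batch 3 pair and 0.91 in the batch 4 pair, 0.21 without nuclear IGF2BP2 knockout replicate 2 and 0.71 without replicate 1, and DESeq2 did not call it (adjusted p = 0.0949). For RPS4X the nuclear knockout libraries, at 2696 and 2733 CPM, were above all controls (1993 to 2353 CPM). The cytoplasmic ones, at 3315 and 3325 CPM, lay inside the control range over all batches, 3024 to 3659 CPM. With the batch term and TMM scaling RPS4X was called lower in the cytoplasm of this knockout. The count of 29 was 4 without nuclear control replicate 3, 7 without nuclear IGF2BP2 knockout replicate 2, 7 and 9 without cytoplasmic control replicates 3 and 4, and 6 and 9 without cytoplasmic IGF2BP2 knockout replicates 1 and 2. It was 19 without cytoplasmic control replicate 1 or 2, either cytoplasmic IGF2BP1 knockout replicate or cytoplasmic IGF2BP3 knockout replicate 2, and 49 without nuclear control replicate 1 or 2 or either nuclear IGF2BP1 knockout replicate. RPL11 was not called without nuclear control replicate 3, RPS4X without that library, cytoplasmic control replicate 3 or cytoplasmic IGF2BP2 knockout replicate 1, and RPLP1 without replicate 4 of the cytoplasmic or nuclear control or replicate 2 of the cytoplasmic or nuclear IGF2BP2 knockout.

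RPL36A was 1 of the 2 members with a lower ratio in the IGF2BP2 knockout, by -1.31 ± 0.17 (adjusted p = 3.15e-06), and 1 of the 2 members called in the IGF2BP3 knockout, by -1.37 ± 0.17 (adjusted p = 1.01e-05). In the IGF2BP3 knockout the other 75 members were not called, with a median of 0.04 over all 77, where 10.2% of all genes were called, 4.1% higher and 6.06% lower. RPL36A had 25.7 and 28.2 CPM in the cytoplasm of the IGF2BP2 knockout and 20.1 to 23.3 CPM in that of the IGF2BP3 knockout, all above the control range of 11.4 to 15.6 CPM. Its cytoplasmic change was 0.97 ± 0.09 (adjusted p = 1.62e-11) and 0.65 ± 0.09 (adjusted p = 1.35e-07). In the nucleus it changed by -0.30 ± 0.11 and -0.65 ± 0.12. Of the 2 calls in the IGF2BP3 knockout, 1 was left without nuclear control replicate 3, and 9 members were called without nuclear IGF2BP3 knockout replicate 2.

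Members were also divided by the start of the transcript. In the cytoplasm the 42 genes with the C-led run had medians of -0.22, -0.13 and -0.26 in the IGF2BP1, IGF2BP2 and IGF2BP3 knockouts, and the 20 genes with another annotated start had -0.27, -0.26 and -0.34. Their median nuclear to cytoplasmic ratio in the control was -0.48 in both sets. No test was made of these differences. RPL26 and RPL36A, with the largest fall and the largest rise in the cytoplasm, both carry the run.

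Related genes were counted from lists written with earlier results of these data known, beside 21.9%, 33.2% and 33.2% of all genes called lower and 22.5%, 30.9% and 31.5% called higher in the cytoplasm of the IGF2BP1, IGF2BP2 and IGF2BP3 knockouts. Of 16 tested TOP mRNAs for translation factors and chaperones, 13, 15 and 14 fell in the cytoplasm, with medians of -0.18, -0.45 and -0.52, among them EEF2, the translocase, at -0.27 ± 0.03, -1.03 ± 0.03 and -0.86 ± 0.03. Of 40 genes for ribosome assembly, 36, 37 and 39 fell in the cytoplasm, with medians of -0.37, -0.62 and -1.06, which were further from 0 than those of the members. NOB1, the endonuclease that finishes 18S rRNA, changed by -1.35 ± 0.05 and -1.60 ± 0.05 in the IGF2BP2 and IGF2BP3 knockouts, and nucleolin (NCL) by -1.59 ± 0.04 in the latter. Of 15 regulators of TOP mRNAs 7 rose and 5 fell with IGF2BP1, 4 rose and 10 fell with IGF2BP2 and 11 fell with IGF2BP3. LARP1 changed by -0.45 ± 0.04 and -0.44 ± 0.04 in the last 2. The 4E-binding protein gene EIF4EBP1 changed by -0.50 ± 0.04 in the IGF2BP1 and 0.77 ± 0.04 in the IGF2BP2 knockout.

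Of 77 tested mitochondrial ribosomal protein genes, 63, 62 and 59 fell in the cytoplasm of the IGF2BP1, IGF2BP2 and IGF2BP3 knockouts, with medians of -0.31, -0.50 and -0.36. In total RNA 8, 61 and 51 of 78 fell, where 13.5%, 23.7% and 23.4% of all genes were called lower. Of 7 tested paralogs 4, 3 and 2 fell, and RPL22L1, the paralog of RPL22, changed by -0.48 ± 0.07 and -1.23 ± 0.07 in the IGF2BP1 and IGF2BP3 knockouts. Of 1588 named ribosomal protein pseudogenes 175 passed the filter in the cytoplasm, where 24, 23 and 31 fell and 2, 13 and 7 rose, smaller shares in each direction than among all genes (21.9%, 33.2% and 33.2% lower, 22.5%, 30.9% and 31.5% higher). All named pseudogenes held 1.10% to 1.48% as many counts as the 77 genes in a library. Of the fraction markers in the cytoplasm, 4, 4 and 5 of 5 tested nuclear RNAs rose, 5, 8 and 8 of 8 cytoplasmic mRNAs fell, and 6, 2 and 4 of 8 mitochondrially encoded RNAs fell, while 3 rose with IGF2BP2 and 1 with IGF2BP3. In the nuclear RNA of the IGF2BP3 knockout all 8 mitochondrial RNAs rose. Of the 8 HEK293 markers 5, 4 and 3 fell and 2, 4 and 5 rose in the cytoplasm, and of 4 tested markers of other cell types 2, 2 and 1 fell, while 1 rose with IGF2BP1 and 2 with IGF2BP3.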

How the data were processed

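Total, nuclear and cytoplasmic poly(A) RNA of HEK293T cells was sequenced as stranded libraries with paired reads, per the labels' protocols, in 32 libraries. The authors deposited raw read counts per gene, 1 table per RNA kind, and FPKM values of the same libraries. GRCh38, STAR, featureCounts and DESeq2 1.44.0 are named in the submitters' processing notes, without their roles; the annotation, the strand setting and the handling of reads with several matches are not given in the sources used here. Genes with close copies, pseudogenes or overlapping exons are therefore uncertain. The deposited FPKM values followed the span of the gene on the genome (GENCODE 29), so they were used only within genes, and levels between genes are CPM per kilobase of mRNA, the shortest complete coding transcript with the main coding length. RPL37, RPL27A, RPL37A and RPS23 have long annotated mRNAs, which lowers their level per kilobase. Counts cover 13689067 to 26119480 reads a library, and the number of libraries limits the precision.

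Each RNA kind was fitted with edgeR 4.0.16 (R 4.3.3), a quasi-likelihood test with TMM scaling, the default low-count filter by group, and the labelled batch and the genotype as terms, with Benjamini-Hochberg adjustment over all tested genes at 0.05. The SE is the fold change divided by the root of the F statistic. The batch pairs a knockout library with the control of that batch, and the pairing comes from the batch label, not from the replicate number. Nuclear and cytoplasmic control libraries were compared with a batch term, and the ratio change is the interaction of genotype and fraction, with a batch by fraction term, over batches 1 to 4. Counts were simulated at the real mean levels, with the same spread for all genes of a comparison, no batch effect and 200 changed genes of higher level. There a log2 change of 0.5 was found for 56.7% to 80.6% of genes in total RNA, 79.1% to 89.6% in nuclear RNA, all in cytoplasmic RNA and 61.2% in the ratio. For a change of 0.25 the values were 5.97% to 7.46%, 10.4% to 13.4%, 68.7% to 83.6% and 2.99% to 5.97%. More genes were called in the data and their spread differs by gene, so these rates do not carry over to the data.

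The members and the lists (places in the ribosome, paralogs, assembly factors, other TOP mRNAs and their regulators, mitochondrial ribosomal proteins, pseudogenes, markers) were chosen with earlier results of these data known. Named members were, per knockout, up to 6 in each direction called in 3 RNA kinds with the same sign in each batch pair, ranked by the smallest change; the 5 highest and lowest by level and by nuclear to cytoplasmic ratio; the 3 largest ratio changes and 4 largest differences between the IGF2BP3 and IGF2BP2 knockouts in each direction; and 4 called in the cytoplasm of each knockout. Some genes that fall under this rule or these lists are not reported here. Alternatives were RLE size factors, upper quartile, library totals, TMM without the members, no filter, DESeq2 1.42.0, limma 3.58.1 on log2(FPKM + 1) and log2(FPKM + 0.1), no batch, only the batches of a knockout, adding pseudogene counts, and leaving out batch 5, the repeated library or each library. Leaving out members that share over 50% of their mRNA with another gene, and the length by all exon bases, were chosen after seeing the data. Start windows and neighbours used RefSeq GRCh38.p14 and GENCODE 29.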

Additional observations from a re-analysis of the deposited data

Results flagged for a closer look

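Groups of 4 libraries were searched for a library far from the other 3, which chance alone gives in about 1 of 20 groups; 5 of 140 groups of a member met this. RPL27A was highest in total control replicate 4, at 820 CPM, and RPS4X in the same library, at 2539 CPM. RPS28 was lowest in nuclear control replicate 2, at 282 CPM. RPL6 (1441 CPM) and RPS7 (654 CPM) were lowest in replicate 2 of the cytoplasmic IGF2BP3 knockout.

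The IGF2BP2 and IGF2BP3 knockouts differed, when compared directly in edgeR, in 34 members of total RNA, 52 of nuclear and 61 of cytoplasmic RNA. These were 44.2%, 67.5% and 79.2% of the members, where 43.3%, 48.2% and 62.7% of all genes were called. The total RNA share of the members was thus near that of all genes. The nuclear to cytoplasmic ratio changed in 37 members in the IGF2BP1 knockout, in 29 in the IGF2BP2 knockout and in 2 in the IGF2BP3 knockout, by the interaction of genotype and fraction. For the ratio these were 48.1%, 37.7% and 2.6% of the members, where 2.99%, 18% and 10.2% of all genes were called. Whether the ratio change itself differed between knockouts was not tested.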

How the results depend on the processing

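Of 2022 checks of 89 results on named members, 1953 kept direction and call, 69 lost the call and none changed direction. The named members were mostly picked by size and call in the same data, so these numbers do not describe the other members. In counts simulated with the same spread for all genes, a log2 change of 0.25 was found for 2.99% to 5.97% of changed genes in the ratio, 5.97% to 13.4% in total and nuclear RNA and 68.7% to 83.6% in cytoplasmic RNA. Small changes outside the cytoplasm could be missed, at rates that may differ in the data.

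Without the replicate block (the batch term dropped), the pairing of libraries by batch was lost, and the members called fell to 28 from 61 in the cytoplasm of the IGF2BP2 knockout, to 28 from 71 for IGF2BP3, to 38 from 61 for IGF2BP3 against IGF2BP2 and to 6 from 29 for the IGF2BP2 ratio; no other count moved by over 1.5 times, although the IGF2BP1 cytoplasmic count was 53. Counts called moved by over 1.5 times as follows, and the cause was not tested. For IGF2BP1 in total RNA they were 7 with only its batches, 6 and 6 with limma on FPKM, and 37 without the repeated library; in nuclear RNA 4 with only its batches and 1 and 1 with limma; for its ratio 24 with TMM without the members and 68 without the repeated library. For IGF2BP2 they were 32 with library totals and 34 with limma on log2(FPKM + 1) in total RNA, 15 and 14 with limma in nuclear RNA, and 18 with upper quartile and 14 with library totals for the ratio. For IGF2BP3 they were 35 with library totals and 40 with limma on log2(FPKM + 0.1) in total RNA, 23 and 22 with limma in nuclear RNA, and 0 for the ratio when members sharing exons were left out; in edgeR no remaining member had an unadjusted p under 0.05, a count of 0, and DESeq2 called 2 with all members. In DESeq2 the ratio counts were 44, 29 and 2, and the share of all genes called there is not given here.

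Leaving out 1 library gave 11 to 46, 29 to 59 and 32 to 74 members in total RNA for IGF2BP1, IGF2BP2 and IGF2BP3, 6 to 13, 9 to 42 and 10 to 51 in nuclear RNA, 61 to 72, 56 to 61 and 65 to 71 in cytoplasmic RNA, and 0 to 70, 4 to 49 and 1 to 9 for the ratio. IGF2BP3 against IGF2BP2 gave 22 to 55, 29 to 60 and 51 to 62, and the control fractions 67 to 72. Without mitochondrially encoded genes the share was 6.83%, 6.03% and 5.63% in total control, IGF2BP2 and IGF2BP3 knockouts, and 7.05%, 9.87% and 9.05% in cytoplasmic IGF2BP1, IGF2BP2 and IGF2BP3 knockouts; with pseudogenes the cytoplasmic IGF2BP1 share was 6.67%. The median level was 663 CPM without length and 215 CPM per kilobase of all exon bases.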
